A study of Mus musculus with 18 samples.

Results

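Microglia that carry a mutation of DAP12 were compared with untreated wild-type microglia by microarray. The comparison holds 8 of the 18 arrays of the study: 4 arrays labelled DAP12KO and 4 labelled UT, for untreated wild-type, whose labels carry the same year as the mutant arrays and which are called UT_2013 after it. A further 2 UT arrays, of the year before, are called UT_2012 and serve here only to show how far untreated arrays can lie apart. No source used here says what the year marks. Where no year is given below, UT arrays are the UT_2013 arrays. The other 8 arrays of the study, from embryos of dams given LPS or PBS, enter an alternative fit and the choice and filter of probe sets only. All embryos were of the C57BL/6 background and at E17.5, and all 10 arrays used here came from untreated mice with sex given as unknown. The DAP12KO arrays are labelled DAP12-/- and the UT arrays wild type. Hippocampi were pooled and digested with trypsin and DNase I, and GFP-positive cells were sorted, so that the cells of both groups also carried a GFP reporter at Cx3cr1. RNA was pooled per pregnant dam, so an array stands for the embryos of a dam rather than for an embryo. The sort takes any cell with the reporter, which includes macrophages at the borders of the brain. No source used here says which part of the gene the mutation alters.

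DAP12, encoded by Tyrobp, is a small transmembrane adaptor of myeloid and natural killer cells. It has almost no extracellular part and pairs with receptors such as TREM2, whose signal it passes on through a cytoplasmic activation motif that recruits the kinase SYK. In the brain it is made by microglia, and loss of DAP12 or of TREM2 in people causes Nasu-Hakola disease, in which bone and white matter are affected. In bulk arrays such as these, fewer cells of a type and less RNA per cell cannot be told apart.

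Values are log2 expression levels, on which a difference of 1 is a doubling, and each gene is represented by 1 probe set. Of 11630 genes tested, 0 passed an adjusted p of 0.05 in limma's moderated test (0% of genes, smallest adjusted p = 0.889). At an unadjusted p under 0.05 there were 508 genes, 262 with a higher (2.25%) and 246 with a lower (2.12%) mean in the DAP12KO arrays, or 4.37% in all, where 5% of the genes would be 581.5. Every gene described below is therefore one whose difference did not pass the test, and its values are given as a description of these arrays. All genes named have the adjusted p of limma's fit at 0.889 or above. The median difference, DAP12KO minus UT, was 0.02 over all genes and 0.04 over the 5495 bright genes, which are those with a mean log2 level of 8 or more over the 8 arrays.

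The array-to-array spread sets what could be seen. For a bright gene the median standard error of the difference was 0.43, and the 95% confidence interval reached 0.99 to either side, which is 1.98-fold. For the 6135 dim genes it reached 1.61, or 3.05-fold. Among the 818 genes with a mean of 12 or more, to which 21 of 26 microglia marker genes belong, it reached 0.47, or 1.38-fold. The median absolute difference between the DAP12KO and UT_2013 arrays was 0.31 over bright genes. Between the 2 UT_2012 and the UT_2013 arrays, which shared a genotype, it was 0.40. A mean of 2 arrays varies more than a mean of 4, and the label year differed too, so these values cannot be compared directly. Over bright genes, Pearson's r was 0.724 to 0.830 between pairs of DAP12KO arrays, 0.732 to 0.878 between pairs of UT_2013 arrays and 0.665 to 0.877 between arrays of different genotype. Arrays of different genotype were thus about as alike as arrays of the same one. UT replicate 2 had a Gapdh 3′ probe set brighter than the 5′ one by 2.235, against 0.886 to 1.200 on the other 7 arrays of the comparison and 1.306 and 2.769 on the UT_2012 arrays. Without UT replicate 2 there were likewise 0 genes past the adjusted threshold in limma's fit, and 455 at an unadjusted p under 0.05. Xist, the RNA of the inactive X chromosome, was at 2.21 on UT replicate 6 and between 10.72 and 13.99 on the other 7.

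The targeted gene itself was lower in every DAP12KO array, but its transcript was still among the brightest. Tyrobp stood at 13.80, 13.83, 13.75 and 14.23 on the 4 DAP12KO arrays and at 14.52, 14.55, 14.52 and 14.41 on the UT_2013 arrays. The groups did not overlap, and the UT_2012 arrays, at 14.48 and 14.29, also lay above every DAP12KO array. The difference was −0.60 ± 0.12 (SE), with a 95% confidence interval of −0.87 to −0.33, so that the DAP12KO mean was 66% of the UT mean. Of the 818 genes with a mean of 12 or more, Tyrobp had the lowest unadjusted p (0.00102, limma), and it ranked 8 by p among all genes tested. By absolute difference Tyrobp ranked 20 of the 818, a band that was chosen after the values were seen. With the DAP12KO mean of 13.90, the signal was far from the lowest value of the arrays, 2.19, and the gene's mean over the 8 arrays was at percentile 99.25 of all tested genes. Tyrobp has 1 probe set on this array, and no source used here says whether its probes lie inside the altered part of the gene. DAP12 protein was not measured, and the genotype is taken from the labels.

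**Figure D1:**
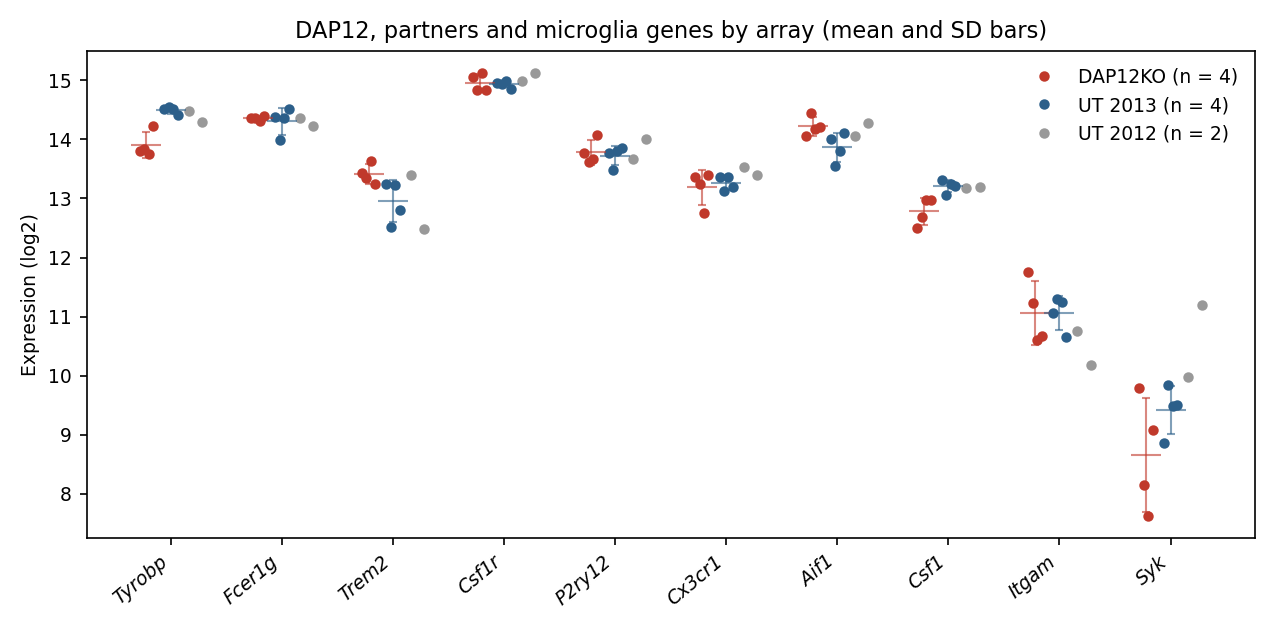
Log2 expression (vertical axis) of Tyrobp, receptors and kinases it works with and genes typical of microglia (horizontal axis) on each array, with bars for the mean and SD of the groups of 4. For Tyrobp and Csf1 the 4 DAP12KO points lie below all UT points, while for Csf1r, P2ry12, Fcer1g and Cx3cr1 the groups overlap.

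The receptors that use DAP12 and the adaptors like it differed in both directions. Of 14 tested genes of DAP12 and its partners, 8 had a higher and 6 a lower mean in the DAP12KO arrays. The median difference was 0.03 and the range −1.47 (Cd300ld) to 1.28 (Treml1), both ends being dim genes. Of these genes 1, Tyrobp, did not overlap between the groups. Over all genes, 52.4% had a higher and 47.6% a lower mean, and 2.37% did not overlap in either direction. Each list below is to be read beside these shares. The shares and the list counts put every gene on 1 side. Genes at the lowest value on all 8 arrays are thus counted too, though they did not differ. Trem2, the lipid-sensing receptor that signals through DAP12, stood at 13.44, 13.34, 13.64 and 13.25 in the DAP12KO arrays and at 13.25, 12.52, 13.23 and 12.81 in the UT arrays. The highest 3 DAP12KO values lay above the whole UT range and the lowest one just inside its upper end, which gave a difference of 0.47 ± 0.19 (SE). With the mean of its 2 probe sets this was 0.23. Fcer1g, the related adaptor chain of Fc receptors, differed by 0.05 ± 0.12 (SE), a difference that turns to −0.01 when arrays are centred on their bright genes. Clec5a, a lectin receptor that signals through DAP12, was at 8.82 to 10.21 in DAP12KO and 7.58 to 9.60 in UT arrays. Hcst, which encodes the adaptor DAP10 next to Tyrobp, was dim in both groups, with means of 3.69 and 4.15. Siglech, a microglial lectin that pairs with DAP12, had a mean of 13.91 in the DAP12KO and 13.88 in the UT arrays. Trem1, Trem3, Klrk1 and Klrd1 were among the 6 partners with a probe set too dim to be tested.

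Downstream of DAP12, 12 of 21 tested kinases and effectors had a higher and 9 a lower mean, with a median difference of 0.05, which was −0.154 against all 6 UT arrays, −0.11 without DAP12KO replicate 2 and 0.18 without DAP12KO replicate 5. Syk was at 9.79, 8.14, 7.63 and 9.07 in the DAP12KO arrays and at 8.86, 9.84, 9.48 and 9.51 in the UT arrays, with a difference of −0.76 ± 0.50 (SE) and overlapping groups. Lcp2, which encodes the scaffold SLP-76, was the 1 gene of these whose groups did not overlap, at 10.47 to 10.96 in DAP12KO against 9.68 to 10.43 in UT_2013 arrays. The UT_2012 arrays stood higher still, at 11.22 and 11.72, and against all 6 UT arrays the difference of 0.55 became 0.11. Among 15 genes of inhibitory receptors and phosphatases, 7 had a higher and 8 a lower mean. The phosphatase gene Ptpn11 did not overlap, at 10.27 to 10.88 in DAP12KO and 8.91 to 10.01 in UT arrays (difference 0.98 ± 0.28 SE), but it too was high in the UT_2012 arrays, at 10.84 and 11.20, and the difference was 0.50 with them among the controls and 0.60 with the mean of its 3 probe sets. Fcgr2b, the inhibitory Fc receptor, had a difference of −1.05 ± 0.36 (SE), lower in the DAP12KO arrays.

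Genes that define microglia were bright on every array and, as a list, nearly level between the groups. All 26 tested members of the microglia list were bright, 15 had a higher and 11 a lower mean, the median difference was 0.02, and 0 of them failed to overlap between the groups. Their differences ran from −0.22 to 0.63. Of the 26, 3 had an unadjusted p under 0.05 in limma's fit with a higher mean and 0 with a lower one. Over all genes the shares were 2.25% and 2.12%. The mean over the list was 12.94 to 13.14 on the DAP12KO arrays and 12.89 to 13.12 on the UT_2013 arrays. Cx3cr1, the fractalkine receptor whose locus drives the reporter, differed by −0.07 ± 0.16 (SE), a sign that turned to 0.07 without DAP12KO replicate 4. P2ry12, a purinergic receptor typical of microglia, differed by 0.06 ± 0.14 (SE), and Csf1r, the receptor that keeps microglia alive, by 0.02 ± 0.09 (SE); the sign of both turned under centring on bright genes, to −0.01 and −0.04. Itgam, the CD11b chain, had means of 11.06 and 11.07. The widest differences of the list were those of Selplg, a ligand of selectins (0.63 ± 0.25 SE), Trem2, given above, and Aif1, which encodes IBA1. Aif1 stood at 14.05, 14.45, 14.18 and 14.21 in DAP12KO and at 13.999, 13.55, 13.80 and 14.11 in UT arrays, so that the groups overlapped by 1 array on each side.

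Genes that mark microglia of disease and of developing white matter differed in both directions. Of the 27 tested, 9 had a higher and 18 a lower mean in the DAP12KO arrays, with a median of −0.09 and a range of −0.96 to 1.07, and 1 did not overlap. The highest difference was that of Cybb, a subunit of the phagocyte NADPH oxidase, at 9.59 to 11.55 in DAP12KO and 8.32 to 10.31 in UT arrays. The gene without overlap was Csf1, which encodes the growth factor that acts on CSF1R. Csf1 was at 12.50, 12.68, 12.98 and 12.97 on the DAP12KO arrays and at 13.31, 13.07, 13.25 and 13.21 on the UT_2013 arrays. The UT_2012 arrays were close to the latter, at 13.17 and 13.19, so that every DAP12KO array lay below every UT array. The difference was −0.43 ± 0.14 (SE), with a 95% confidence interval of −0.74 to −0.11, and it stayed between −0.49 and −0.33 under all alternatives tried. Of 24 phagocytosis and scavenger receptor genes, 9 had a higher and 15 a lower mean, with Cd36, a lipid scavenger receptor, lowest at −2.83 ± 1.07 (SE) and −0.96 with the mean of its probe sets. Lysosomal genes split 13 to 14 among 27 tested, with a median of −0.01. Of 17 complement and Fc receptor genes, 10 had a higher and 7 a lower mean, and C1qb, one of the brightest genes of all, stood at 15.76 in DAP12KO and 15.94 in UT arrays. Oxidative phosphorylation genes, of which 25 of 26 tested were bright, had a median of −0.04 and a range of array means of 11.76 to 12.38 in DAP12KO and 11.97 to 12.22 in UT arrays.

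Among the 818 genes with a mean of 12 or more, where the arrays were most precise, 15 did not overlap between the groups (1.83%), 8 higher and 7 lower in the DAP12KO arrays. This band was chosen after the values were seen. The lower ones were Tyrobp, Csf1, Lyz1, Rsrp1, Marcksl1, Sec61a1 and Atp5h. Of these, Tyrobp, Csf1, Lyz1 and Sec61a1 also lay below both UT_2012 arrays. Sec61a1, a subunit of the channel that passes new proteins into the endoplasmic reticulum, was at 14.70 to 14.75 in DAP12KO against 14.84 to 15.11 in UT arrays. Lyz1, a lysozyme gene, had a difference of −0.36 ± 0.13 (SE), and since Lyz2 is nearly identical to it, its probes may report both. Among the higher ones, Plagl2, a zinc-finger transcription factor gene, was at 12.26 to 12.81 in DAP12KO against 11.38 to 12.02 in UT_2013 arrays and 12.21 and 11.52 in the UT_2012 arrays, the 1 gene above all 6. Arpc4, a subunit of the ARP2/3 complex that builds branched actin, differed by 0.73 ± 0.27 (SE). Differences of 2-fold or more were rare in this band: 2 of the 818 genes had a difference of that size, with overlapping groups.

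**Figure D2:**
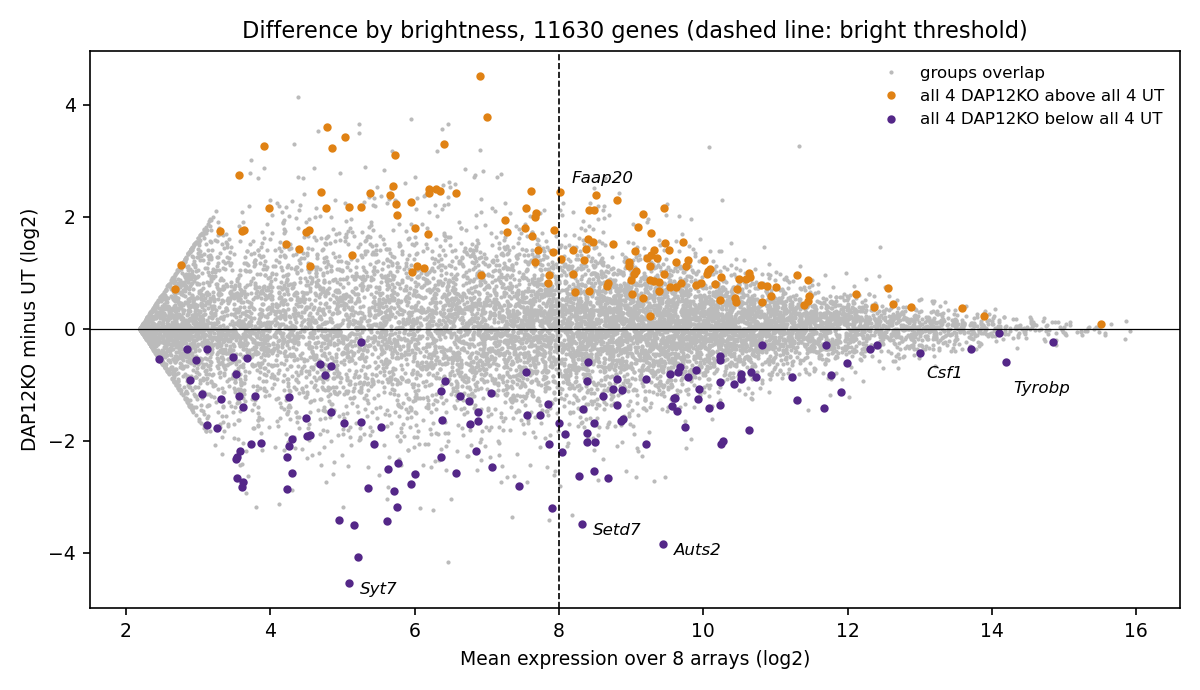
Difference between DAP12KO and UT means (vertical axis, log2) against the mean level over the 8 arrays (horizontal axis, log2) for each of the 11630 genes, with genes whose groups did not overlap coloured by direction. The differences narrow from left to right, and the coloured points lie among grey ones at every brightness, on both sides of 0.

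Across all genes, the 4 DAP12KO arrays lay outside the range of the 4 UT arrays for 276 genes (2.37%), 139 above (1.2%) and 137 below (1.18%). Of the bright genes, 83 lay above (1.51%) and 63 below (1.15%); of the dim genes, 56 above (0.913%) and 74 below (1.21%). The gap between the groups was under 0.1 for 65 of the 146 bright genes. The median difference of the bright genes was 0.92 for those above and −1.09 for those below. With the 2 UT_2012 arrays added to the range, 10 bright genes remained above (0.182%) and 33 below (0.601%). Leaving out any of the 8 arrays raised the counts, as a range over fewer arrays must: 135 to 240 bright genes lay above and 99 to 172 below.

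The bright genes that lay above with the largest differences had various functions. Faap20, a member of the Fanconi anaemia repair complex, was at 9.88, 9.51, 9.02 and 8.56 in DAP12KO and at 6.50, 7.37, 5.48 and 7.83 in UT arrays, a difference of 2.45. Of its UT_2012 arrays, the one at 8.86 was within the DAP12KO range and the one at 8.21 between the groups. Spata5, an ATPase of ribosome maturation, was higher by 2.39, Tcim by 2.30 and Plpp6, a lipid phosphatase gene, by 2.16. Ets2, a transcription factor gene of the ETS family, was at 8.74 to 10.93 in DAP12KO and 5.88 to 8.44 in UT_2013 arrays, with the UT_2012 arrays at 9.33, within the DAP12KO range, and 8.71, just below it. Bin3 (2.12), Nsun2, an RNA methyltransferase gene (2.04), Pex10, which serves peroxisomes (1.81), Ints12 of the Integrator complex (1.72) and Sbds, needed for ribosome assembly (1.61), completed the 10. Without UT replicate 6 the Pex10 difference was 1.01. None of these 10 stayed above all 6 UT arrays.

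Of the bright genes that lay below, Auts2 and Setd7 had the largest differences. Setd7, a lysine methyltransferase gene, was at 5.598, 6.81, 6.95 and 6.98 in the DAP12KO arrays and at 9.41, 11.13, 10.50 and 9.23 in the UT arrays. The UT_2012 arrays were at 9.02 and 7.35, above every DAP12KO array, and the difference was −3.48 ± 0.56 (SE). Auts2, a chromatin regulator gene linked to brain development, differed by −3.84, but this rested in part on DAP12KO replicate 4 at 2.69, the other 3 DAP12KO arrays being at 8.97 to 9.27 against 10.96 to 11.74 in the UT arrays. Without that array the Auts2 difference was −2.23, and with the mean of all probe sets of the gene it was −1.26. Arap2, a GTPase regulator gene, was tight in the DAP12KO arrays, at 7.05 to 7.40, and at 7.96 to 10.97 in the UT arrays. Parp6 (−2.67), Gng3, a G protein subunit of neurons (−2.63), Zfp629 (−2.20), Zfp358 (−2.06), Mbtd1 (−2.06), Bcl11a, a transcription factor gene of neurons and lymphocytes (−2.02), and Gabbr1, a GABA type B receptor subunit (−1.997), followed. The clone 4930444A19Rik, at −2.02 and below all 6 UT arrays, ranked among these but falls outside the naming rule, which skips clone and predicted names. Without UT replicate 2 the Mbtd1 difference was −1.10. Setd7, Arap2, Zfp629, Zfp358 and Mbtd1 lay below all 6 UT arrays. Other bright genes below all 6 were Atm and Mtor, kinases of the DNA damage and nutrient responses, at −1.61 and −1.35. They were picked from the 33 after their values were seen. The Atm difference rested in part on DAP12KO replicate 4 at 6.15, the other DAP12KO arrays being at 8.59 to 8.97 against 9.25 to 10.36 in the UT arrays.

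**Figure D3:**
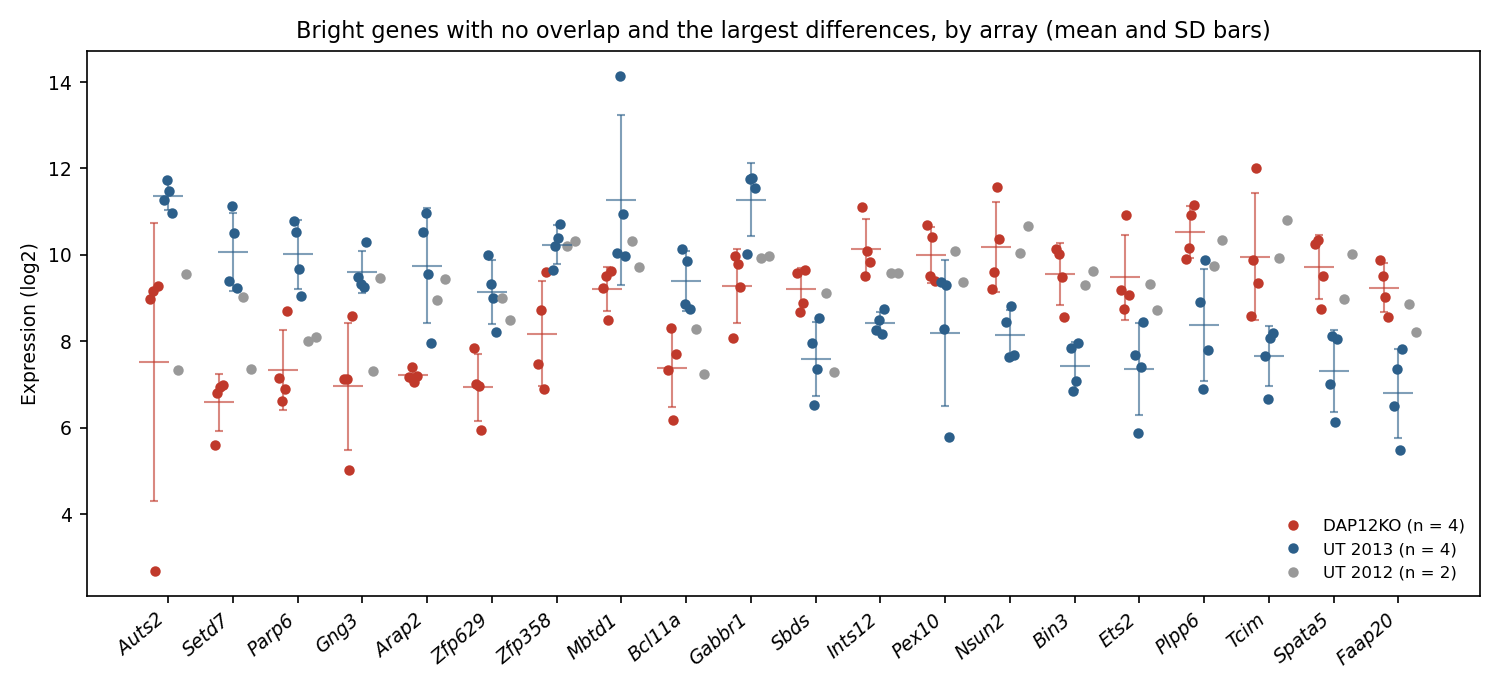
Log2 expression (vertical axis) on each array of the 20 bright genes without overlap that had the largest differences, clone and predicted names left out (horizontal axis, lowest difference at the left), with bars for the mean and SD of the groups of 4. Many UT_2012 arrays lie between the groups or on the DAP12KO side, as for Faap20 and Gabbr1, and the low DAP12KO point of Auts2 is replicate 4.

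The probe set used mattered for these genes. Of the 20, 15 had several probe sets, and with the mean of all of a gene's probe sets each of the 15 kept its direction but had a difference more than 1.5 times smaller. Each such mean includes the probe set already used. A kept direction therefore does not show that the other probe sets of the gene went the same way. Setd7 went to −2.08 and Auts2 to −1.26, and Mbtd1 came close to 0, at −0.05. In the 12 dim genes below, the 10 with several probe sets also kept their direction with a difference more than 1.5 times smaller, with the same limit.

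The genes with the lowest unadjusted p included several from outside the bright set. Of the 8 that were higher in DAP12KO arrays, Tm9sf4, a membrane protein gene, was at 8.30 to 8.64 against 6.59 to 7.04 in the UT_2013 arrays, with SDs of 0.18 and 0.19, but UT_2012 arrays were at 8.12 and 6.88. Cblb, a ubiquitin ligase gene that dampens receptor signals, was at 6.83 to 7.33 in DAP12KO and 4.29 to 5.83 in UT arrays. With the mean of their probe sets the difference of Tm9sf4 was 0.98 in place of 1.66 and that of Cblb 0.53 in place of 2.26. Cbwd1, Rtl8c, Aptx and Ints12 were further members. Mbnl2, a splicing regulator gene, and Smchd1, which silences genes on the inactive X chromosome, had differences of 0.78 and 0.89 that turned to −0.47 and −0.90 with the mean of their probe sets. Of the 8 that were lower, Syt7, a calcium sensor of membrane fusion, was at 2.65 to 3.03 in DAP12KO and 6.06 to 9.13 in UT_2013 arrays, but at 4.70 and 2.93 in the UT_2012 arrays. Lrba, Clmp, Setd7 and Tyrobp were others. With the mean of their probe sets the difference of Syt7 was −0.94 in place of −4.53 and that of Lrba −0.74 in place of −3.44. Ndufb6, a subunit of respiratory complex I, was at 10.64 to 10.97 in DAP12KO and 11.45 to 11.84 in UT arrays. Sdc4, a cell-surface proteoglycan gene, was at 9.13 to 9.72 against 10.37 to 10.59, and Nr2f1, a nuclear receptor gene of developing cortex, at 9.11 to 9.99 against 10.44 to 11.15. For Ndufb6, Sdc4 and Nr2f1 at least 1 UT_2012 array lay within or below the DAP12KO range.

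Dim genes gave larger differences from less stable values. Clone names again left out, the 6 with the largest differences above were Cers4 (3.78), Kctd1 (3.61), Aptx (3.43), Ppfibp1 (3.29), Troap (3.26) and Cbwd1 (3.22). Troap, a spindle protein gene, was near the lowest value in every UT_2013 array (2.19 to 2.49) and at 3.54 to 7.80 in DAP12KO arrays. The 6 below were Syt7 (−4.53), Tlcd3b (−4.08), Lonp2 (−3.50), Lrba (−3.44), Vcan, a matrix proteoglycan gene (−3.21), and Clmp (−3.19). Vcan has 8 probe sets, and their mean gave −0.24. Against these, 1423 dim genes differed by 2-fold or more whether or not the groups overlapped, and so did 486 bright genes, of which 69 did not overlap.

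Interferon response genes had the largest median difference of all the lists, and their level varied widely between arrays. Of 22 tested genes, 19 had a higher and 3 a lower mean in the DAP12KO arrays, where 52.4% of all genes had a higher mean, with a median of 1.37; 0 had an unadjusted p under 0.05 and 0 were without overlap. The mean over the list was 6.17, 9.92, 7.88 and 6.45 on DAP12KO replicates 1, 2, 4 and 5, and 6.00, 5.43, 5.73 and 8.08 on UT replicates 1, 2, 3 and 6. Replicate 2 of DAP12KO was the highest and UT replicate 6 exceeded 3 of the 4 DAP12KO arrays. Without DAP12KO replicate 2 the median was 0.48, and without replicate 1 it was 2.07. Cxcl10, a chemokine induced by interferon, was at 10.69, 13.80, 12.20 and 10.10 in DAP12KO and at 9.59, 4.08, 8.40 and 11.74 in UT arrays. Ifit1, an antiviral effector gene, spanned 5.86 to 11.13 in DAP12KO and 2.99 to 8.61 in UT arrays. Antigen presentation genes, 10 of 14 with a higher mean (median 0.17), showed the same array at the top: DAP12KO replicate 2 was at 10.58 and the other DAP12KO arrays at 9.71 to 9.83.

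Inflammatory cytokines and NF-kB targets had 13 of 20 tested members with a higher and 7 with a lower mean, a median of 0.33 and no gene without overlap. Tnf, the cytokine TNF, was at 2.76, 7.09, 7.03 and 6.32 in DAP12KO and at 2.86, 2.69, 3.39 and 3.51 in UT_2013 arrays. Of the DAP12KO arrays 3 were thus high and 1 was level with the UT arrays, and the UT_2012 arrays were at 4.58 and 6.24. Il1b, the cytokine IL-1 beta, was at 2.58, 10.48, 9.18 and 10.44 in DAP12KO and at 5.35, 2.88, 8.97 and 4.66 in UT arrays, with the UT_2012 arrays at 8.78 and 7.30. DAP12KO replicate 1 was the low array for both genes. The median of the list was 0.01 without DAP12KO replicate 2, 0.52 without replicate 5, 0.215 without UT replicate 6 and 0.16 against all 6 UT arrays. Il6, Il10, Il12b, Nos2 and Ptgs2 were too dim to be tested. Of 25 immediate early genes, which respond to the dissociation of tissue, 17 had a higher and 8 a lower mean, with a median of 0.10, and Klf4 did not overlap (difference 1.08). The mean over this list was 9.86 to 10.46 on the DAP12KO and 9.84 to 10.28 on the UT_2013 arrays. The UT_2012 arrays lay above all of these, at 10.87 and 11.13. Over 3 alternatives that left no array out, the median of the list ran from −0.118 to 0.099. Toll-like receptor and LPS recognition genes split 13 to 9 among 22. Of 23 chemokine receptor and integrin genes, Ccr1, a receptor of inflammatory chemokines, did not overlap, at 6.95 to 7.76 in DAP12KO against 3.55 to 5.79 in UT_2013 arrays; the UT_2012 arrays were at 5.67 and 7.38.

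Cell cycle genes were mostly on the higher side. Of 31 tested, 25 had a higher and 6 a lower mean in the DAP12KO arrays, with a median of 0.33, where 52.4% of all genes had a higher mean. Top2a, the topoisomerase of dividing cells, was at 10.35, 10.94, 10.57 and 10.04 in DAP12KO and at 10.08, 10.02, 9.46 and 9.35 in UT arrays. Birc5, which encodes survivin, did not overlap, at 10.44 to 10.90 against 9.92 to 10.44, a gap in the third decimal. Nusap1 differed by 0.97 and by −0.01 with the mean of its probe sets. The mean over the list was 9.62, 10.52, 10.16 and 10.01 on the DAP12KO arrays and 9.94, 9.68, 9.67 and 9.90 on the UT_2013 arrays, so that DAP12KO replicate 1 was the lowest of all 8 and the other 3 were above every UT array. The UT_2012 arrays were at 10.26 and 10.12. The median was 0.14 without DAP12KO replicate 2, 0.20 without UT replicate 2 and 0.20 against all 6 UT arrays. Of the cholesterol and lipid genes, Fdft1 and Apoc1 lay above the UT_2013 range, by differences of 1.23 and 0.80, among 7 with a higher and 13 with a lower mean.

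Markers of border-associated macrophages, which the reporter also labels, were lower on average in the DAP12KO arrays. Of 11 tested, 2 had a higher and 9 a lower mean (47.6% of all genes had a lower one), with a median of −0.58. Lyve1, a hyaluronan receptor, was at 6.51, 8.09, 8.84 and 8.40 in DAP12KO and at 9.84, 8.81, 11.89 and 12.16 in UT_2013 arrays, overlapping by 1 array of each group. Pf4, a chemokine of platelets and these macrophages, was at 11.58, 11.20, 11.37 and 11.47 in DAP12KO and at 12.17, 11.28, 13.27 and 13.77 in UT arrays. UT replicates 3 and 6 were the high arrays for both genes and UT replicate 2 the low one. The mean over the list was 7.37 to 8.13 on the DAP12KO arrays, and 7.97, 7.53, 9.29 and 9.49 on the UT arrays. The UT_2012 arrays were at 9.36 and 7.72. Mrc1, the mannose receptor, differed by −0.58 ± 0.29 (SE), and Ms4a7 was among the 2 with a higher mean. The UT_2013 arrays thus spanned more among themselves in these markers than the means of the groups lay apart. The part of these macrophages in other differences was not tested.

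Neuronal markers and genes of neurite growth and synapses were also lower on average. Of 24 neuronal markers tested, 6 had a higher and 18 a lower mean (median −0.42), where 47.6% of all genes had a lower one. The counts were 6 and 19 of 25 synapse genes (median −0.50). They were 11 and 35 of 46 genes of neurite outgrowth and axon guidance (median −0.30). Neuronal markers averaged 6.43, 6.60, 5.76 and 6.66 on the DAP12KO arrays and 7.15, 6.11, 7.08 and 7.12 on UT replicates 1, 2, 3 and 6, and UT replicate 2 lay below 3 of the 4 DAP12KO arrays. The UT_2012 arrays, at 5.67 and 5.69, were lower than all 8. With them as controls the medians of the 3 lists were −0.08, −0.21 and −0.10. Without UT replicate 2 the neuronal median was −0.69 and without DAP12KO replicate 1 it was −0.637. That of the synapse list was −0.13 without DAP12KO replicate 4, −0.16 without UT replicate 1 and −0.05 without UT replicate 3. Plxna2, a semaphorin receptor, was at 7.54, 6.44, 4.01 and 6.62 in DAP12KO and at 10.36, 6.82, 10.28 and 10.83 in UT arrays. Cntn2, an axonal adhesion gene, did not overlap, at 6.26 to 7.98 against 8.14 to 10.62, and neither did Ntrk2, the BDNF receptor, which was dim at 3.15 to 3.65 against 3.78 to 4.24. Among neuronal markers, Tubb3 was bright in both groups, at 12.17 and 12.47, while Nefl was listed at the lowest value on all 8 arrays. Nefl is counted in the 6 and 18 above all the same, though it did not differ. The part of neuronal RNA in the lower neurite and synapse values was not tested.

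**Figure D4:**
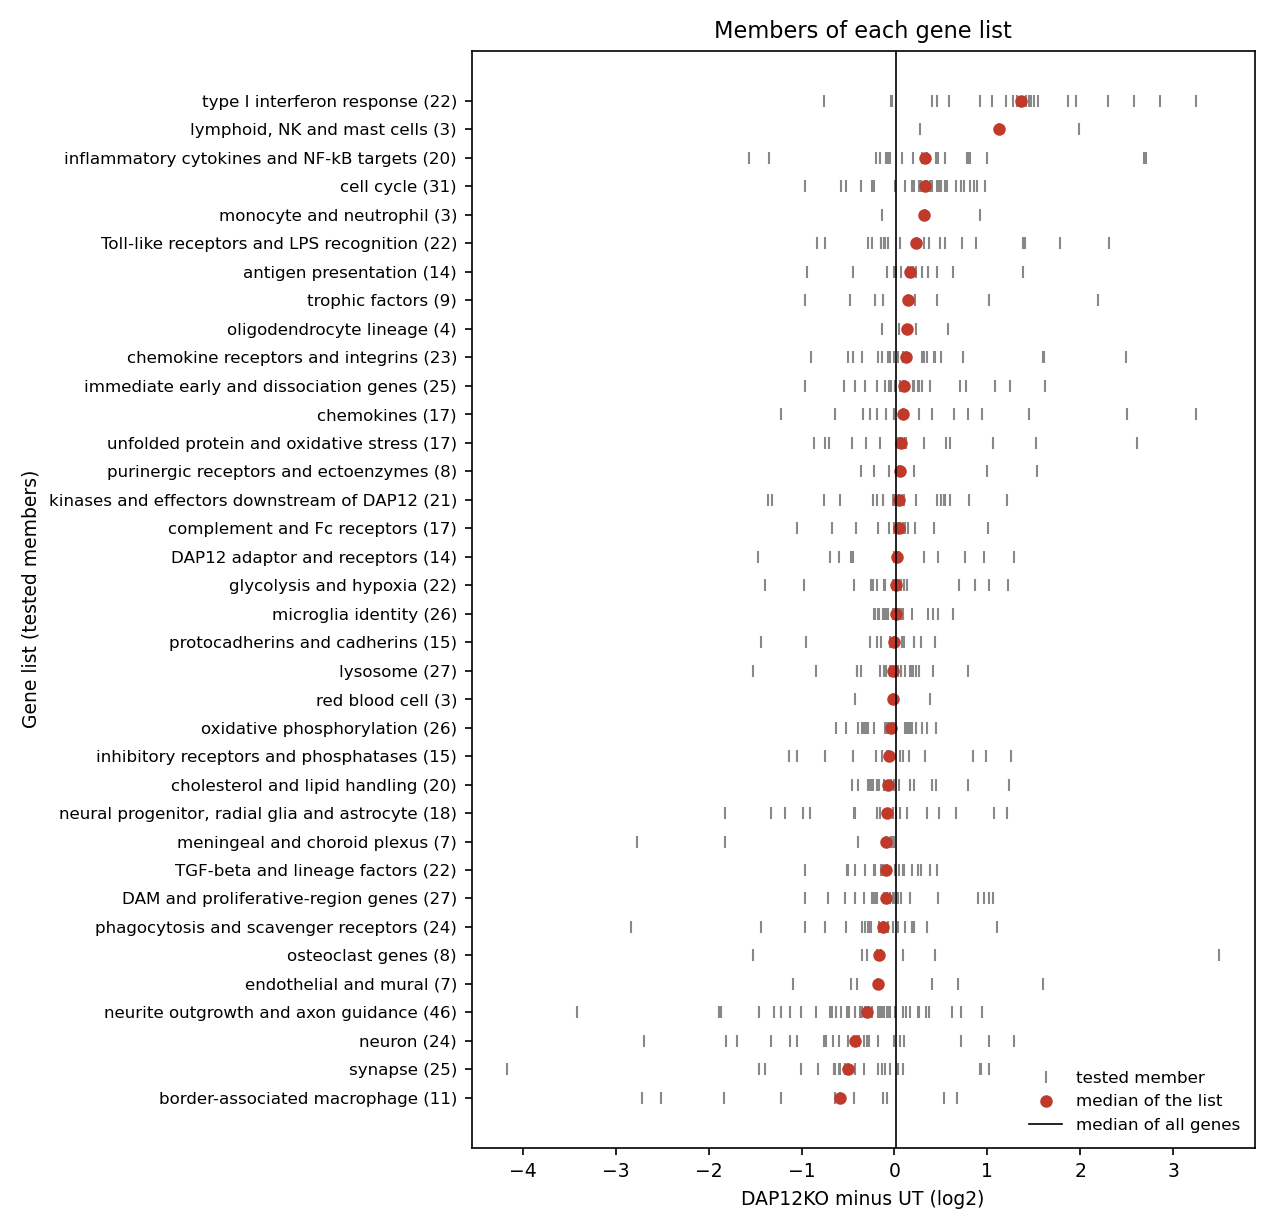
Differences between DAP12KO and UT means (horizontal axis, log2) of the tested members of each gene list (vertical axis, number of members in brackets), with the median of each list and of all genes. The medians of the microglia, lysosome and DAP12 receptor lists lie at the line for all genes, those of the interferon list to its right and those of border-associated macrophages, synapse and neuron to its left.

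**Figure D5:**
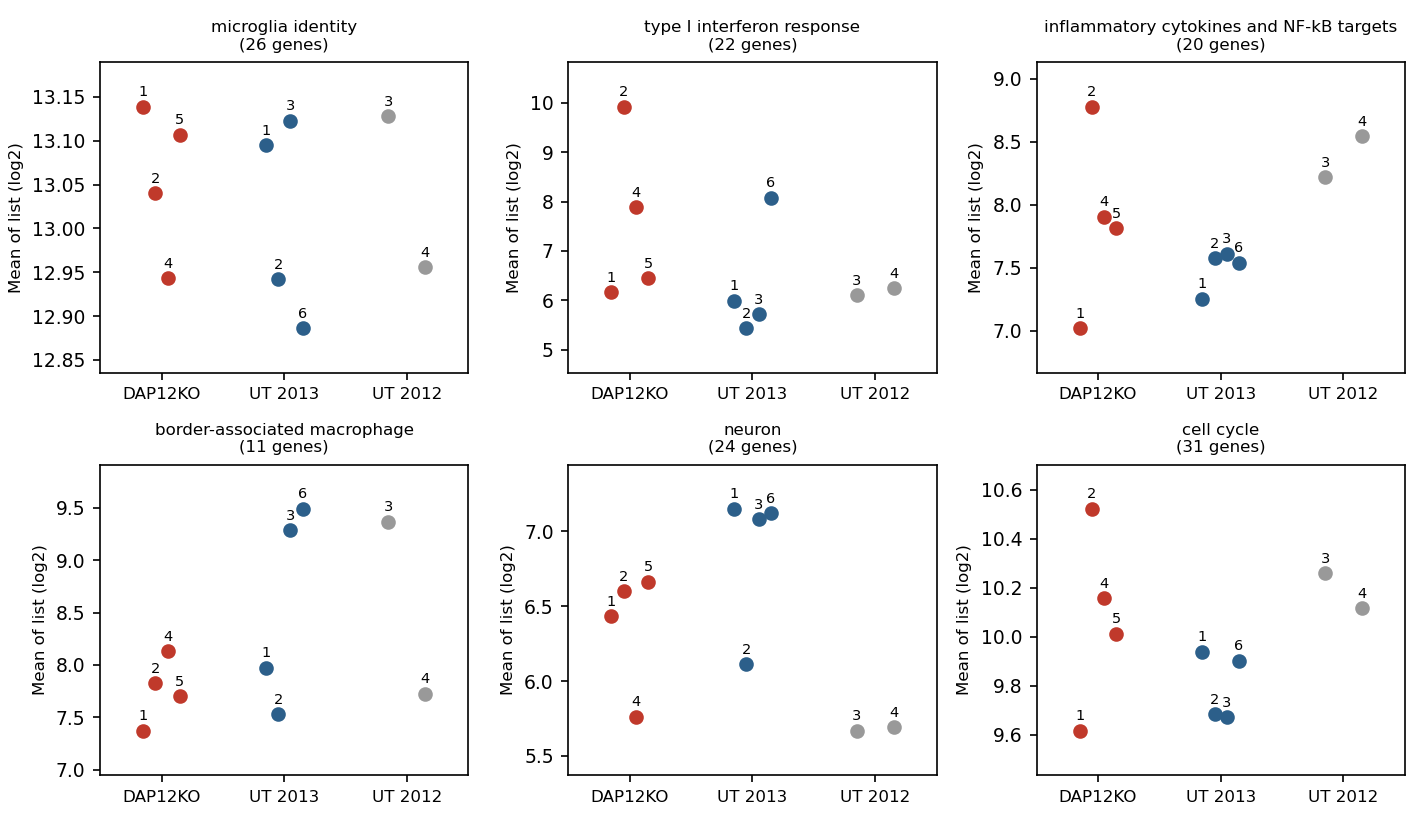
Mean log2 expression (vertical axis) of 6 gene lists on each array, by group (horizontal axis), with replicate numbers from the labels. The microglia means span 12.89 to 13.14, while DAP12KO replicate 2 is highest for the interferon, inflammatory and cell cycle lists and UT replicate 6 is the highest UT_2013 array for interferon genes.

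Markers of other cells were sparse. Of 15 monocyte and neutrophil genes 3 were bright enough to be tested, as were 3 of 18 of lymphoid, natural killer and mast cells, 3 of 13 of red blood cells, 4 of 10 of the oligodendrocyte lineage, and 7 each of 18 endothelial and mural and of 13 meningeal and choroid plexus genes. Of the 3 tested monocyte and neutrophil genes 2 had a higher and 1 a lower mean in the DAP12KO arrays (median 0.32). All 3 of the lymphoid, natural killer and mast cell genes had a higher one (median 1.13). Ccr2, the monocyte gene with the lower mean, averaged 2.19 and 2.32 in the DAP12KO and UT arrays, and Col1a2 2.19 and 2.23. Those that did not overlap were Cd79b, a B cell receptor chain that microglia are known to make, at a difference of 1.13, and Igf2 of the meninges at −2.77. Ttr, the choroid plexus transthyretin, averaged 7.08 in DAP12KO and 8.90 in UT arrays.

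Genes beside Tyrobp on chromosome 7 differed in both directions. Among the 30 tested genes nearest on each side in the RefSeq order of GRCm38.p6, 35 had a higher and 24 a lower mean. Ggn was level, and the median difference was 0.09. Of the 60, 2 did not overlap (3.33%), both lower and both dim, Zfp84 and Zfp420, against 2.37% of all genes. An unadjusted p under 0.05 was found for 8 of them (13.3%), 4 higher and 4 lower, against 4.37% of all genes, and 0 passed the adjusted threshold in limma's fit. Of these 8, Gramd1a was bright and the others were dim.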

How the data were processed

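Sorted microglia were profiled on Affymetrix mouse genome arrays after miRNeasy extraction and amplification with Ovation Pico WTA v2, per the labels' protocols. The authors deposited log2 expression values for 45101 probe sets. The submitters' processing notes name RMA, without a version. RMA subtracts background, gives the arrays a common distribution and combines the probes of a set, so a shift shared by most genes could not be seen. Raw intensities were not used here.

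Probe sets naming exactly 1 gene (34958) were used, with the brightest over the 18 arrays standing for each of 18194 genes. Genes whose mean was under the 40th percentile (log2 2.49) were left out, which left 11630. The 4 DAP12KO and 4 UT_2013 arrays entered the fit (limma 3.58.1, R 4.3.3), whose variance prior followed intensity, with two-sided tests and Benjamini-Hochberg adjustment at 0.05. The method was tested on simulated data with independent, normally distributed values, which these arrays need not follow. The number of arrays limits the precision, and the dams behind them are taken as independent. DAP12KO and UT arrays shared the replicate numbers 1 and 2, whose deviations correlated at −0.047 and 0.041 over genes, so the numbers were not taken as pairs.

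The members and gene lists were chosen with earlier results of these data known. Genes were named by rule: 12 genes of interest, the 8 lowest p per direction where fewer than 6 pass, the 10 bright and 6 dim genes per direction with the largest differences among those without overlap, and the 4 lowest p of each list. Clone and predicted names were skipped, which left out 1 gene among the lowest p, 1 bright and 2 dim genes. Naming list members only where 5 or more were bright, the set with a mean of 12 or more, and single genes said to be picked were chosen after values were seen. Alternatives covered the arrays and controls, the prior, array weights, filter, probe sets, normalization, floor, a replicate block and each array left out.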

Additional observations from a re-analysis of the deposited data

Results flagged for a closer look

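In groups of 4 arrays, a value was singled out when its distance to the nearest other array exceeded 0.829 of the range of the group. Of 374 groups examined 36 met this. A rate of about 1 in 20 would hold for independent, normally distributed values. The groups here share arrays and in part genes. In some, such as Treml1 and Scd1 in the UT_2013 arrays, the other values were all at 2.193. The 2 rates can therefore not be compared. No explanation was tested for any of them.

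In the DAP12KO arrays, Tyrobp itself was highest on replicate 5, at 14.226, with the others at 13.753 to 13.830. Replicate 1 was low for Il1b (2.582), Setd7 (5.598), Clec5a (8.820) and the mean of the monocyte and neutrophil list (3.327). Replicate 2 was high for Tlcd3b (5.237), Cxcl9 (10.147), Psmb9 (12.275), Gria1 (3.156), and the means of the antigen presentation (10.58), oligodendrocyte (3.268) and sex-linked (9.639) lists. Replicate 4 was low for Auts2 (2.686), Vcan (3.853) and F13a1 (6.131) and high for Stx1a (10.312, the others being at 2.284 to 2.649). Replicate 5 was low for Itgb2 (11.734).

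In the UT_2013 arrays, replicate 1 was high for Smchd1 (10.487), Treml1 (2.585), Acp5 (6.303) and the mean of the neural progenitor, radial glia and astrocyte list (6.934), and low for Gabbr1 (10.020). Replicate 2, with the high Gapdh 3′ to 5′ difference, was low for Plxna2 (6.816) and for the means of the neuron (6.114) and purinergic receptor (9.877) lists, and high for Atf4 (12.577), Mmp9 (2.911) and the mean of the oxidative phosphorylation list (12.22). Replicate 3 was high for Troap (2.493) and Scd1 (2.932) and low for Nfkbia (10.456) and Tirap (2.689). Replicate 6 was high for Hcst (5.579), Cxcl9 (8.225) and Cebpa (11.099), and low for the mean of the Toll-like receptor list (7.967).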

How the results depend on the processing

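No gene passed the adjusted threshold in the main fit or in any of the 13 other fits that keep all arrays, among them all 18 arrays with the year as a term (smallest adjusted p = 0.301) and the replicate block (0 called, 496 at an unadjusted p under 0.05). Leaving out 1 array gave 0 to 1 genes called higher and 0 to 1 lower: Niban3 (3.60) without DAP12KO replicate 4, H2-Ob (−3.01) without UT replicate 1 and St6galnac3 (−1.77) without UT replicate 6, by limma's adjusted p. Genes at an unadjusted p under 0.05 numbered 403 to 637 over the other fits and 428 to 609 with 1 array left out.

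Against all 6 UT arrays, the genes without overlap were 10 higher and 33 lower among bright and 16 and 34 among dim ones; with the mean of all probe sets, 52 and 31 bright and 107 dim higher; with a filter at the 60th percentile, 41 dim lower. With 1 array left out the counts were 135 to 240 bright higher, 99 to 172 bright lower, 101 to 180 dim higher and 124 to 159 dim lower, since fewer arrays have to lie apart. Against all 6 UT arrays the median of the kinase list moved to −0.154 and that of trophic factors to −0.258. With 1 array left out the medians ran from −0.111 to 0.181 for the kinase list, −0.664 to −0.046 for synapse, −0.272 to 0.057 for osteoclast, −0.231 to 0.548 for endothelial and mural and −0.524 to −0.021 for meningeal and choroid plexus genes.

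Signs turned for these genes: with arrays centred on bright genes Fcer1g (−0.010), Csf1r (−0.038) and P2ry12 (−0.005); against all 6 UT arrays Csf1r (−0.016), Itgam (0.195), Ier3 (−0.024) and Tgfb1 (−0.061); with array weights Csf1r (−0.009) and Itgam (0.048); with the mean of probe sets Mbnl2 (−0.467), Smchd1 (−0.903), Ctsz (0.030), Nusap1 (−0.014) and P2rx7 (0.261). The cause was not tested. With 1 array left out, signs also turned, over these ranges: Adora3 −0.106 to 1.725, Csf1r −0.031 to 0.068, Cx3cr1 −0.142 to 0.072, Fcer1g −0.056 to 0.120, Hcst −0.748 to 0.007, Itgam −0.236 to 0.151, P2rx7 −0.505 to 0.166, P2ry12 −0.041 to 0.115. Tyrobp stayed between −0.71 and −0.55 under every alternative.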
